A study of Mus musculus with 6 samples.

Results

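A set of 9 regulators of the mitochondrial pathway of cell death was followed in embryonic mouse sensory ganglia: the guardians Bcl2, Bcl2l1 (BCL-XL) and Mcl1, the effectors Bax and Bak1, the BH3-only genes Bcl2l11 (BIM), Bbc3 (PUMA) and Hrk, and the initiator caspase Casp9. They were chosen by name as genes of neurotrophin-dependent death, and they make up 9 of the 37086 genes in the files. Of the 43 transcripts that GENCODE M21 lists for them, 34 were in the files, with 155 deposited values per library for whole transcripts and single exons. Dorsal root ganglia were dissected at embryonic day 14.5 from 18 embryos (strain C57BL/6J, wild type), and their total RNA formed 1 pool. In the 3 high-volume libraries 9 µl of RNA solution was used with the SMARTer Ultra Low Input HV kit, and in the 3 low-volume libraries 1 µl with the SMARTer Ultra Low RNA kit. Both kits copy polyadenylated RNA into full-length cDNA. Each group had 1 library from 3 ng, 1 from 10 ng and 1 from 30 ng of RNA. Volume and kit cannot be told apart in this design, and because all 6 libraries repeat 1 RNA pool, each SD, SE and p-value covers technical spread and no spread between animals.

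During development the sensory neurons of these ganglia are produced in excess and compete for neurotrophins, the survival factors made by their targets. A neuron deprived of nerve growth factor raises BH3-only proteins, which bind the guardian proteins and free or activate BAX and BAK. These effectors open the outer mitochondrial membrane, cytochrome c escapes, and caspase 9 is activated on the APAF1 scaffold to start the caspase cascade. The BH3 motif, a short helix with a leucine and an aspartate at fixed spacing, is the part through which BH3-only proteins dock into the groove of the guardians, and the guardians and effectors carry a copy of it as well.

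The coding sequence of that motif is shown for the 8 BCL2 family members, because the exons that hold it were unevenly covered by tags. The sequences are from GENCODE M21 transcripts (GRCm38), 5′ to 3′ on the coding strand, and the capitals mark the core codons (a leucine, any 3 residues, a glycine or alanine, and an aspartate). Each translated coding sequence matched the pattern once along its whole length. In order, they lie at chr1:106712566-106712607 (minus strand), chr2:152829688-152829729 (minus), chr3:95659430-95659471 (plus), chr7:45465988-45466029 (minus), chr17:27022522-27022563 (minus), chr2:128147144-128147185 (plus), chr7:16313767-16313808 (plus) and chr5:118169885-118169926 (plus).
Bcl2: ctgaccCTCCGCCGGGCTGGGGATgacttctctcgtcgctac
Bcl2l1: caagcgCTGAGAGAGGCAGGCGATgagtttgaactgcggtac
Mcl1: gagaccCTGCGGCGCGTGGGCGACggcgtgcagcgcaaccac
Bax: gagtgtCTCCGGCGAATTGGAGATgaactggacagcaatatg
Bak1: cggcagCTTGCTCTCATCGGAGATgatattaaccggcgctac
Bcl2l11: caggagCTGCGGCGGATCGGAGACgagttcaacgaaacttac
Bbc3: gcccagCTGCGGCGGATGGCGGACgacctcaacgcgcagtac
Hrk: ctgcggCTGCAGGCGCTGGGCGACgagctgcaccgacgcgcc
The active-site codons of Casp9 (capitals, centred on the catalytic cysteine) lie at the end of exon 6, and the stretch shown runs on into exon 7 across the intron (chr4:141807241-141811555, plus strand).
Casp9: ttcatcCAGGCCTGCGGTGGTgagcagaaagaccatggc

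The libraries held 14160397, 23511760 and 25867688 tags on the transcripts chosen for each gene (the transcript with the most tags) at 3, 10 and 30 ng in high volume, and 15920990, 26826281 and 31524210 in low volume. All 8 sensory neuron markers examined reached 10 RPKM, with a median of 247 RPKM. RPKM is the authors' tag count scaled to transcript length and library size. Of all 37086 genes, 12527 had a mean of 1 RPKM or more, 4620 of 10 or more and 12294 of 0. Of 7 glial markers 6 reached 1 RPKM, with a median of 16.0 RPKM and Fabp7 highest at 869 RPKM. All 4 erythroid markers did so too, with a median of 121 RPKM. The erythroid Hbb-y was at 3034 RPKM, beside 2961 RPKM for the neuronal Tubb3 and 4956 RPKM for Sncg. All 4 fibroblast, all 4 endothelial, all 4 cycling-cell and all 3 macrophage markers also reached 1 RPKM, as did 2 of 4 muscle markers. Of 4 spinal cord markers 1 did, Hes5 at 5.85 RPKM (1.85 to 11.7), with Pax6 at 0.415, Nkx2-2 at 0.011 and Olig2 at 0.0052 RPKM. The markers of the labelled tissue were thus present, with RNA of several cell types in the pool. For every level below, fewer cells of a type and less RNA per cell cannot be told apart.

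Among the guardians Bcl2l1 was the most abundant. Its transcript Bcl2l1-202 (chr2:152780672-152830666, minus strand, 2568 bases) had 37.6, 44.6 and 43.3 RPKM in the 3, 10 and 30 ng high-volume libraries, against 60.2, 55.0 and 53.5 RPKM in the low-volume libraries. Every high-volume library lay below every low-volume library. With 3 libraries per group such a separation can arise by chance, here and wherever it is named below. The share of all genes that show it was not counted. The edgeR test of volume reported below gave Bcl2l1 an adjusted p of 0.744. The mean was 49.0 ± 8.53 RPKM (SD, n = 6), and 3.99% of all genes were higher. Mcl1, the short-lived guardian that holds BAK in check, had 8.64, 7.56 and 6.05 RPKM in high volume and 8.97, 8.68 and 7.47 RPKM in low volume (chr3:95658721-95663176, plus strand). The groups overlapped, and the mean was 7.89 ± 1.10 RPKM. Bcl2, the founding guardian of the family, had 1.56, 0.930 and 0.715 RPKM in high volume and 0.896, 1.33 and 0.897 RPKM in low volume (chr1:106538178-106714274, minus strand). Its groups overlapped too, and its mean of 1.06 ± 0.321 RPKM ranked 12346 of 37086 genes. Of these genes 12527 had a mean of 1 RPKM or more and 12294 had 0, so Bcl2 lay near the end of the former. Of the Bcl2 transcript, 7.76% overlapped the gene D630008O14Rik, and since the counts did not use strand such shared tags cannot be told apart. Bcl2l1 made up 84.4 ± 2.98% of the summed RPKM of the 3 guardians (78.6 to 86.5%). Its level was 6.27 ± 1.06 times that of Mcl1 and 50.1 ± 15.8 times that of Bcl2, with a range of 24.0 to 67.2 for Bcl2 over the libraries.

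Among the effectors Bax was the higher gene in every library. Bax-201 (chr7:45461695-45466898, minus strand, 869 bases) had 167, 143 and 167 RPKM in the high-volume libraries and 245, 163 and 181 RPKM in the low-volume libraries. The low-volume 3 ng library stood above the other 5, and the groups overlapped. The mean was 178 ± 35.4 RPKM (SD, n = 6) with that library and 164 ± 13.8 RPKM without it, and 1.43% of genes were higher than Bax. Its coefficient of variation of 19.9% was set beside 603 coding genes within 2-fold of its level, whose median was 11.9%, with 9.78% of them more variable. Without the low-volume 3 ng library the coefficient of Bax was 8.43%. Bak1, the other pore-forming effector, had 1.79, 1.39 and 1.798 RPKM in high volume and 2.01, 1.13 and 1.15 RPKM in low volume (Bak1-202, chr17:27019810-27029009, minus strand). The groups overlapped around a mean of 1.54 ± 0.372 RPKM. Bax was 119 ± 27.5 times as high as Bak1 (92.7 to 158) and carried 99.1 ± 0.188% of the effector RPKM. Overlapping genes limit both values: 22.1% of Bax-201 was shared with Gm45808 and 25.7% of Bak1-202 with Ggnbp1.

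The 3 BH3-only members were all low. Hrk (Harakiri), which neurons induce after loss of nerve growth factor, had 2.12, 1.28 and 1.38 RPKM in high volume and 0.154, 1.33 and 1.44 RPKM in low volume (Hrk-201, chr5:118169764-118189478, plus strand). The low-volume 3 ng library stood below the rest with 14 tags, where the other 5 libraries had 176 to 263. The mean of Hrk was 1.28 ± 0.634 RPKM (SD, n = 6), and 1.51 ± 0.347 RPKM without the low-volume 3 ng library. Bcl2l11, which encodes the BIM proteins that bind all guardians, had 0.731, 1.01 and 1.15 RPKM in high volume and 0.282, 1.14 and 1.08 RPKM in low volume (Bcl2l11-205, chr2:128126039-128162547, plus strand). Again the low-volume 3 ng library was the lowest, and the mean was 0.897 ± 0.338 RPKM with it and 1.02 ± 0.171 RPKM without it. Bbc3, a p53 and FOXO target, had 0.320, 1.00 and 0.821 RPKM in high volume and 0.261, 0.550 and 0.780 RPKM in low volume (Bbc3-201, chr7:16309616-16318205, plus strand). Both 3 ng libraries were below the other 4, with 9 tags in high volume and 8 tags in low volume. Summed over the 3 genes, BH3-only RPKM was 3.17, 3.28 and 3.34 in high volume and 0.697, 3.01 and 3.31 in low volume. That sum was 1.21 ± 0.501% of the RPKM of all 9 members, and 0.218% in the low-volume 3 ng library, whereas Bax and Bcl2l1 together made up 92.4 ± 1.62%. The part of the low-volume 3 ng preparation in these low values was not tested.

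Casp9, the initiator caspase of the apoptosome, had 5.02, 5.23 and 5.24 RPKM in high volume and 2.17, 5.54 and 6.12 RPKM in low volume (Casp9-201, chr4:141793612-141815976, plus strand). The low-volume 3 ng library was low, and the groups overlapped. The mean was 4.89 ± 1.39 RPKM with that library and 5.43 ± 0.429 RPKM without it (SD, n = 6 and 5). The plot of levels by library shows all 9 genes in their order.

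**Figure D1:**
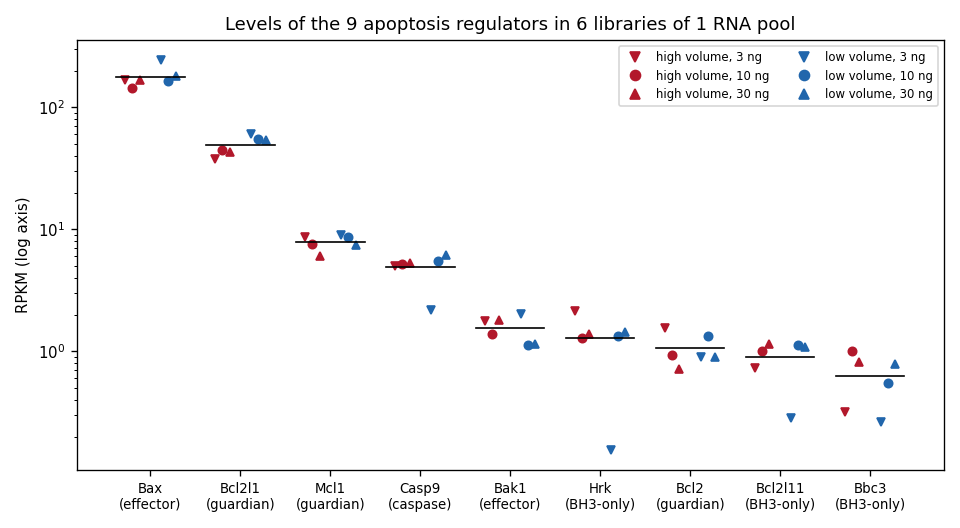
RPKM (log axis) of the 9 genes in the 3 high-volume libraries (red, left) and the 3 low-volume libraries (blue, right); symbols give the input and black lines the mean of 6 libraries. Bax and Bcl2l1 stand above the rest in every library, and the low-volume 3 ng library is the lowest for Hrk (0.154 RPKM), Bcl2l11 (0.282), Bbc3 (0.261) and Casp9 (2.17).

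By mean RPKM the order was Bax, Bcl2l1, Mcl1, Casp9, Bak1, Hrk, Bcl2, Bcl2l11 and Bbc3. The 36 pairs were compared within libraries on log2(RPKM + 1), a scale that understates ratios of low genes, and signs were flipped in an exact two-sided permutation test over the 6 libraries, with p-values adjusted over the 36 pairs. In 28 pairs the same gene was higher in 6 of 6 libraries, with an exact p of 0.0312 each, the smallest possible here, and 0.0402 after adjustment. Bax exceeded its neighbour Bcl2l1 by 1.83 ± 0.22 log2 units, or 3.66 ± 0.569 times in RPKM (2.96 to 4.46). Bcl2l1 exceeded Mcl1 by 2.48 ± 0.26. Mcl1 exceeded Casp9 by 0.63 ± 0.54 in 6 of 6 libraries although their ranges overlapped, and Casp9 exceeded Bak1 by 1.18 ± 0.59. Below Casp9 the order of most pairs was not resolved. Bak1 minus Hrk was 0.20 ± 0.60 and positive in 3 of 6 libraries (exact p = 0.688, adjusted 0.688). Hrk minus Bcl2 was 0.11 ± 0.43 in 4 of 6 (exact p = 0.625, adjusted 0.643), and Bcl2 minus Bcl2l11 was 0.12 ± 0.37 in 3 of 6 (exact p = 0.438, adjusted 0.463). The other 5 pairs that missed the threshold were Bak1 with Bcl2 and with Bcl2l11, Hrk with Bcl2l11 and with Bbc3, and Bcl2 with Bbc3 (exact permutation test, adjusted p 0.0750 to 0.170). Bak1 exceeded Bbc3 by 0.66 ± 0.42 in 6 of 6 libraries. Bcl2l11 exceeded Bbc3 by 0.22 ± 0.19 in 6 of 6 libraries, with overlapping ranges. That order was not seen in the means of the last exons, 0.944 ± 0.574 RPKM for Bbc3 and 0.932 ± 0.347 RPKM for Bcl2l11. In the 10 and 30 ng libraries alone Hrk was above Bak1 and Bcl2l11 above Bcl2 on average.

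The other genes of the BCL2 family ran between 0 RPKM for Bcl2l10 and 65.02 RPKM for Bad. Bad, a BH3-only gene whose protein is held inactive by AKT phosphorylation, had 65.02 ± 13.5 RPKM (46.0 to 86.3, n = 6), which is above all 3 BH3-only members. Bok, a BAX-like effector, was at 13.5 ± 4.09 RPKM, and Bid, the BH3-only protein cut by caspase 8, was at 9.45 ± 1.69 RPKM. Bmf was at 1.76 ± 0.525 and Bik at 1.34 ± 0.730 RPKM, and Bik had 0 tags in the low-volume 3 ng library. The BH3-only gene Pmaip1 (NOXA) was at 0.088 ± 0.116 RPKM. Of the remaining guardians, Bcl2l2 (BCL-W) was at 1.09 ± 0.372 RPKM. Bcl2a1b was at 0.294 ± 0.206, Bcl2a1a at 0.022 and Bcl2a1d at 0.0075 RPKM. These 3 are near-identical copies between which tags may be split, so their single values are uncertain. Bcl2l10 had 0 tags in all 6 libraries. The plot of the family by class sets these genes beside the members.

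**Figure D2:**
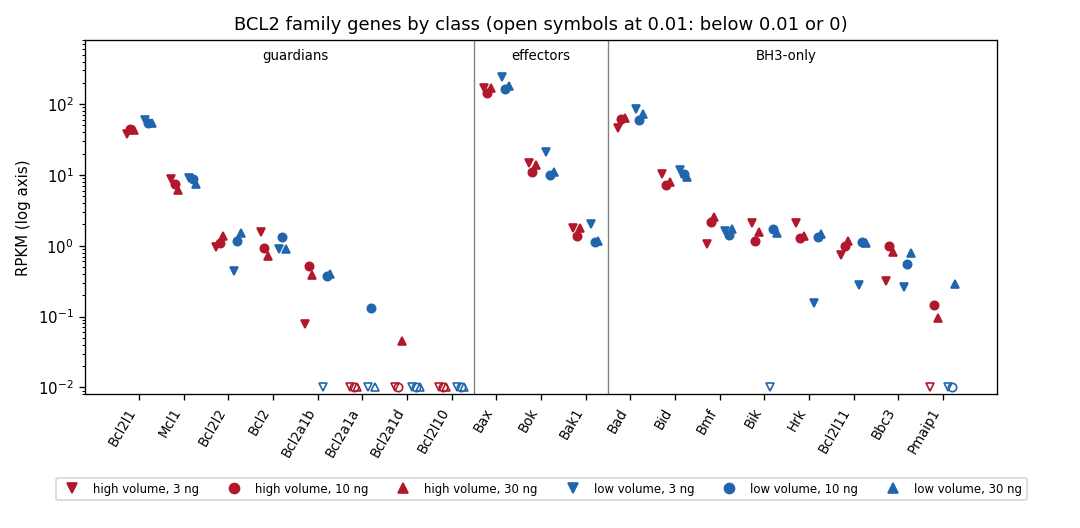
RPKM (log axis) of the 19 BCL2 family genes, grouped as guardians, effectors and BH3-only genes and ordered by mean within a class, in the high-volume (red, left) and low-volume (blue, right) libraries; open symbols at 0.01 stand for values below 0.01 or 0. Each class has 1 gene far above its others: Bcl2l1 at 49.0, Bax at 178 and Bad at 65.02 RPKM on average.

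Downstream and upstream of the family, 46 further genes of the pathway, the family genes above included, were all present in the files. Among the receptors, Ngfr (p75), a neurotrophin receptor with a death domain, had 43.0 ± 19.5 RPKM and Fas 1.03 ± 0.748 RPKM. For the counts that follow, the background is 12527 of 37086 genes with a mean of 1 RPKM or more. All 7 genes of the apoptosome and caspase list reached 1 RPKM, led by Cycs (cytochrome c) at 82.5 ± 6.17 RPKM, with Casp8 lowest at 1.24 ± 0.676. Apaf1, the scaffold of caspase 9 and singled out after its values were seen, had 3.94, 1.09 and 0.982 RPKM in high volume and 0.054, 0.858 and 1.14 RPKM in low volume, so it too was lowest in the low-volume 3 ng library. All 7 inhibitors of apoptosis and their antagonists reached 1 RPKM, with Diablo (SMAC) at 31.4 ± 3.48, Htra2 at 21.4 ± 3.06 and Birc3 at 1.20 ± 1.17 RPKM. In the list of JNK, p53, FOXO and AKT genes 15 of 16 reached 1 RPKM, with Trp53 at 64.4 ± 11.0, Akt1 at 42.6 ± 14.5 and Trp73 at 0.010 RPKM (SD, n = 6 for each).

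Tags were spread unevenly along the members' transcripts, and the exons richest in G and C carried the fewest per base. The 9 chosen transcripts have 39 exons. The 6 exons with a GC content of 70% or more, a limit chosen after the values were seen, had a median of 8.62% of their transcript's RPKM (1.05 to 15.4%), and the 33 other exons had a median of 98.9% (17.2 to 156%). Of these 6 exons 4 were first exons, and the 9 first exons had a median of 17.2%, against 114% for the 9 last exons. Spearman's rho between GC content and relative level was -0.56 over the 39 exons and -0.28 over the 30 exons that were not first exons. These are descriptions, since exons of a transcript share libraries and depth and position moves with GC content.

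**Figure D3:**
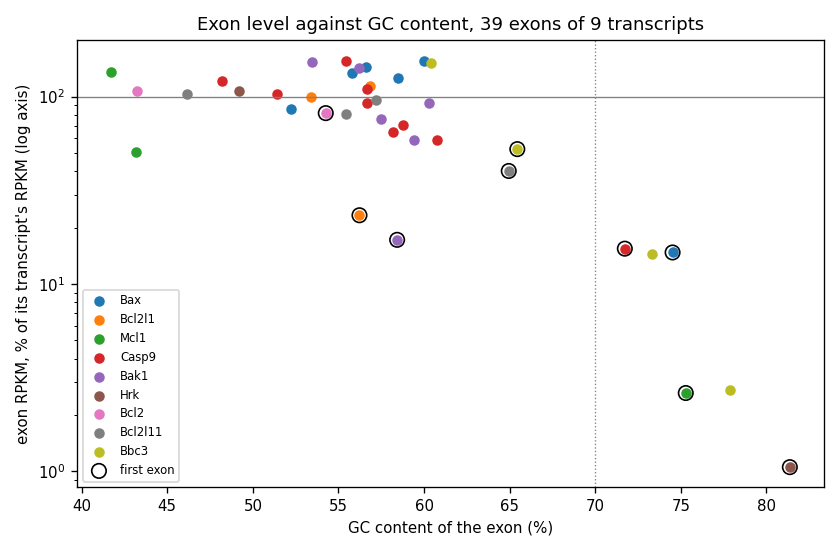
Mean RPKM of each of 39 exons as a percent of its transcript's RPKM (log axis) against the exon's GC content (%), coloured by gene, with first exons circled; the horizontal line is 100% and the dotted line 70% GC. All 6 exons right of the dotted line are at 15.4% or less, and no exon left of it is below 17.2%.

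The clearest case was Hrk. Its first exon (chr5:118169764-118170128, 365 bases, 81.4% GC) holds the BH3 core printed above, and it received 1 of the gene's 1045 tags over the 6 libraries. That tag was in the low-volume 30 ng library. In the other 5 libraries 0 tags allowed a level of up to 0.283 to 0.531 RPKM (3 counts), while the second exon had 2.27, 1.37 and 1.48 RPKM in high volume and 0.165, 1.43 and 1.54 RPKM in low volume. In the low-volume 3 ng library the limit of 0.486 RPKM lies above the level of the second exon, so a difference was not detectable there. Mcl1 was alike: its first exon (767 bases, 75.3% GC), which also holds the BH3 core, had 0, 4 and 4 tags in high volume and 10, 1 and 1 tags in low volume, 20 of 4033 tags in all. The third and last exon of Mcl1 had 10.7 ± 1.49 RPKM, against 0.207 ± 0.288 RPKM in the first. In Bbc3 the exon with the BH3 core (exon 3, 191 bases, 73.3% GC) had 3 tags and exon 2 (289 bases, 77.9% GC) had 1 tag. The last exon (1088 bases) had 171 tags. At 3 ng it had 2 tags in high volume and 8 tags in low volume, too few to show a difference from exons 2 and 3 there. In the high-volume 3 ng library 7 of the 9 Bbc3 tags lay in exon 1, and across the other 5 libraries that exon had 1 tag.

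In the abundant genes the BH3 exon was well covered. Exon 3 of Bax had 191, 174 and 225 RPKM in high volume and 307, 195 and 242 RPKM in low volume. Exon 2 of Bcl2l1 had 30.8, 41.8 and 45.0 RPKM in high volume and 64.3, 55.5 and 53.5 RPKM in low volume. The groups did not overlap, but these tags are part of the transcript's count, so this adds no separate evidence of a volume difference. The first exon of Bax, at 74.5% GC, had 26.2 ± 5.25 RPKM, and exons 2 to 6 had means of 152 to 277 RPKM. In Bcl2 the exon with the BH3 core had 0.861 ± 0.280 RPKM, close to the 1.13 ± 0.356 RPKM of its other exon. Exon 4 of Bak1, with its BH3 core, had 53 tags and 2.37 ± 1.37 RPKM. Exon 3 of Bcl2l11 had 14 tags in all, with 0, 2 and 4 in high volume and 0, 5 and 3 in low volume.

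In Casp9 the low-volume 3 ng library differed in coverage as well as in level. Exon 6, which holds the active-site codons, had 0.873, 4.96 and 6.71 RPKM in high volume and 0, 4.42 and 3.78 RPKM in low volume. In the low-volume 3 ng library exons 3 to 8 had 0 tags each, and 129 of its 143 Casp9 tags lay in exon 9, the last. Exon 9 had 3.20 RPKM there, and 0 tags allowed up to 5.06 RPKM in exon 3 and up to 0.985 to 1.97 RPKM in the other 5 exons. All 24 Bcl2l11 tags of that library were in the last exon, but there the limits for exons 1 to 3 (0.449 to 1.61 RPKM) lie above the gene's level. The plot of exon levels shows these gaps.

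**Figure D4:**
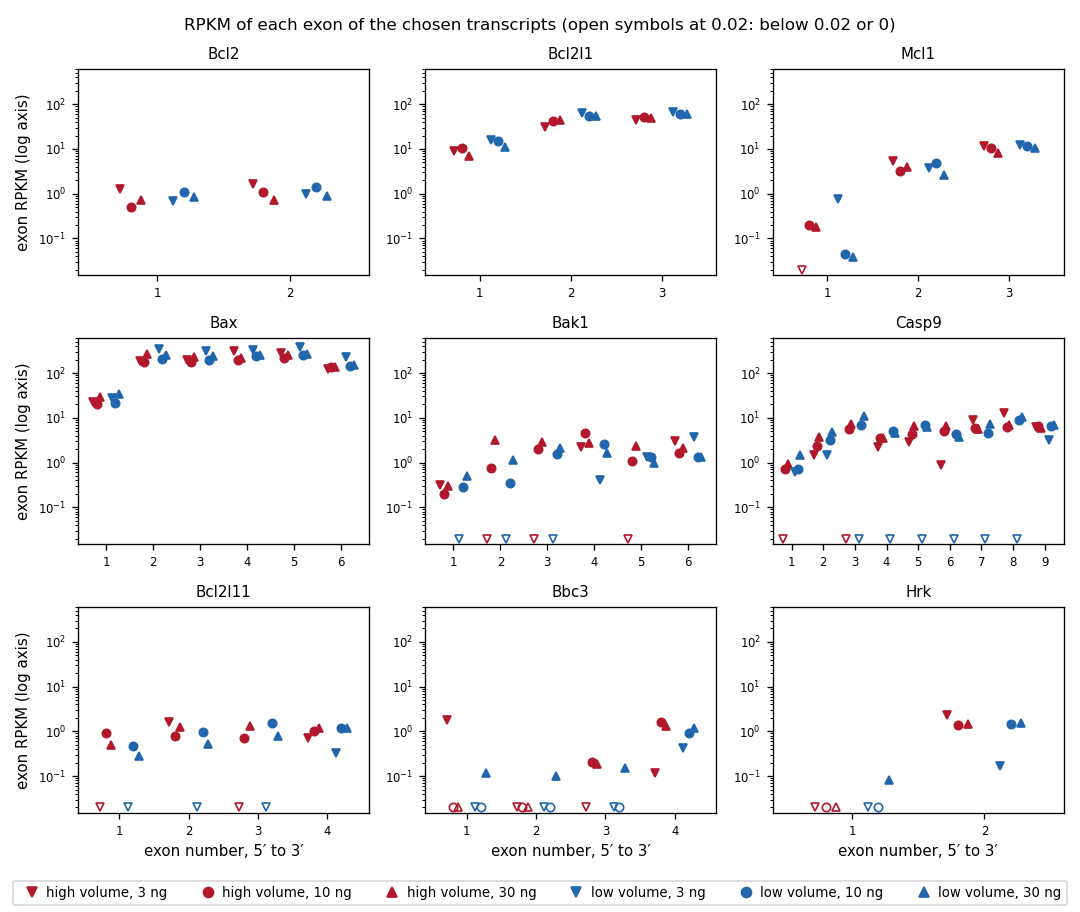
RPKM (log axis) of each exon of the chosen transcript of the 9 genes, numbered 5′ to 3′, in the high-volume (red, left) and low-volume (blue, right) libraries; open symbols at 0.02 stand for values below 0.02 or 0. By mean RPKM, exon 1 of Hrk and of Mcl1 and exons 2 and 3 of Bbc3 lie below the last exon of their gene. A difference was not detectable for Hrk in the low-volume 3 ng library or for Bbc3 in either 3 ng library. Casp9 exons 3 to 8 have 0 tags in the low-volume 3 ng library.

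The share of a gene's tags in its last exon was 99.9% for Hrk, 95.8% for Mcl1, 90.03% for Bcl2l11, 85.2% for Bbc3, 77.4% for Bcl2, 76.1% for Casp9, 71.7% for Bcl2l1, 70.5% for Bak1 and 26.8% for Bax, as means of 6 libraries. Over the libraries the share ran from 22.2 to 100% for Bbc3, where the lowest value rests on 9 tags, and from 59.1 to 93.8% for Bak1. The last exon is 93.2% of the length of Hrk-201 and 31.3% of that of Bax-201. With the transcript of highest RPKM the mean share was 7.27% for Bcl2l11 and 27.1% for Casp9. The last exons of those transcripts are 5.34 and 24.4% of the length. The Bcl2l11 mean of 7.27% leaves out the low-volume 3 ng library, where its transcript of highest RPKM had 0 tags. The median of the 9 shares was 77.6, 85.0 and 71.7% in high volume and 93.8, 77.7 and 73.5% in low volume. The groups overlapped, with 78.1 ± 6.64% in high volume and 81.7 ± 10.7% in low volume (SD, n = 3 each; two-sided exact permutation p = 0.6, where the smallest possible is 0.1).

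Exons that belong to only some isoforms gave a partial view of the transcripts used. BIM is made in an extra-long form (EL) and in a long form that lacks an interval of exon 2. The interval kept only in EL is shown in capitals with 10 flanking bases on each side (chr2:128128747-128128934, plus strand, GENCODE M21 transcript on GRCm38), because the tags of exon 2 were compared inside and outside it.
Bcl2l11: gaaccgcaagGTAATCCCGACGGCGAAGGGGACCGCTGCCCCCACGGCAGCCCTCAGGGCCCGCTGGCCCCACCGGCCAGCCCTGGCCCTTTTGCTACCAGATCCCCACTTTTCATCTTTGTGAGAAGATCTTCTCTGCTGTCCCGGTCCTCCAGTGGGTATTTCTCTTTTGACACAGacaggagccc
The 168 bases kept only in EL had 2 tags, both in the high-volume 10 ng library, or 11.9 tags per kilobase. The 227 bases of exon 2 kept in both forms had 10, 6 and 14 tags in high volume and 0, 11 and 7 tags in low volume, together 48 tags or 211 tags per kilobase. Of these, 36 lay on the 5′ side of the interval (263 per kilobase) and 12 on the 3′ side (133 per kilobase). The transcript Bcl2l11-207, which ends at chr2:128128737, overlaps the 5′ side, so tags there need not come from either form. The EL-only interval thus held 4.0% of 50 tags (exact 95% interval 0.488 to 13.7%, counting error only). Its GC content is 61.3%, against 54.0 and 54.4% in the flanking parts, and the part of base composition in this difference was not tested.

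At Bcl2l1 the first exon of Bcl2l1-202 had 8.96, 10.7 and 6.82 RPKM in high volume and 16.0, 14.7 and 11.2 RPKM in low volume. The low-volume libraries were all higher, but these tags are also part of the transcript's count and add no separate evidence. Each first-exon value was below that of exon 3 of the transcript, which averaged 55.8 ± 8.26 RPKM. The first exon of Bcl2l1-202 does not single out that transcript, since Bcl2l1-205 shares 473 of its 474 tags. The first exon of Bcl2l1-201, shared with Bcl2l1-208, averaged 3.68 ± 1.25 RPKM with 66 tags in all. Introns held few tags per base. The 168906-base intron of Bcl2 had 1215 tags in all (150 to 263 per library), which is more than the 1098 tags of its exons but 4.90% of the exon RPKM. Intron RPKM was 7.55% of exon RPKM for Bak1, 7.37% for Bcl2l11, 2.84% for Mcl1 and 1.44% for Bbc3. It was 0.406% for Casp9, 0.395% for Bcl2l1, 0.289% for Bax and 0.130% for Hrk.

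None of the 9 genes differed between reaction volumes at an adjusted p under 0.05. The edgeR quasi-likelihood fit with volume and log2 input called 1 of 16120 genes (0.0062%), 1076 genes had an unadjusted p under 0.05, and DESeq2 called 182 genes, none of them among the 4 members to which it gave an adjusted p. For Bcl2l1, whose groups did not overlap, the high-volume libraries had 112, 129 and 126 TMM-scaled CPM (counts scaled to library size) and the low-volume libraries 158, 145 and 144. The log2 difference of high over low volume was -0.28 ± 0.11 (SE), with an unadjusted edgeR p of 0.0420 and an adjusted p of 0.744. Hrk had the largest estimate, 1.06 ± 0.76 (edgeR adjusted p = 0.796), and it was 0.06 ± 0.23 in the 10 and 30 ng libraries alone. For Casp9 the difference was 0.41 ± 0.32 over all 6, against -0.03 ± 0.15 without both 3 ng libraries, and for Bcl2l11 it was 0.47 ± 0.49 and 0.08 ± 0.25. The other estimates were 0.10 ± 0.38 for Bcl2, -0.04 ± 0.17 for Mcl1, -0.15 ± 0.15 for Bax, 0.41 ± 0.46 for Bak1 and 0.62 ± 0.73 for Bbc3, with edgeR adjusted p-values of 0.836 to 0.965. In the 10 and 30 ng libraries 278 of 16564 genes were called (1.68%), again none of them a member. That fit left 1 residual degree of freedom, against 3 with all 6 libraries, so its counts and SEs are less secure. In it the estimates of 0.61 ± 0.31 for Bak1 and -0.30 ± 0.23 for Bcl2 had edgeR adjusted p-values of 0.368 and 0.595.

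**Figure D5:**
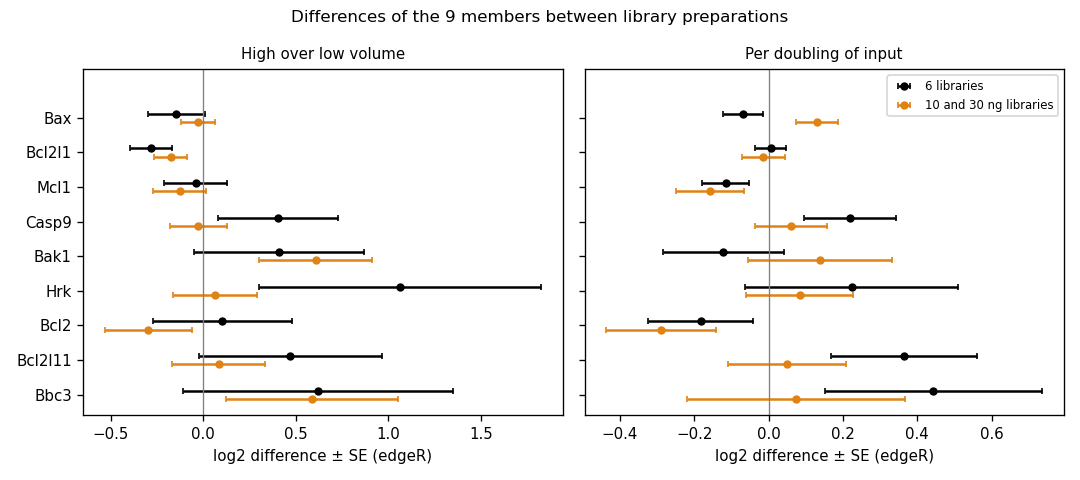
log2 difference ± SE from edgeR for each gene, high over low volume (left) and per doubling of input (right), in all 6 libraries (black) and in the 10 and 30 ng libraries (orange). No member was called in either comparison; the volume estimate of Hrk is 1.06 in black and 0.06 in orange.

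Across inputs the members were not called either. The same edgeR fit called 0 of 16120 genes for the slope with input (0%), with 1253 genes at an unadjusted p under 0.05, and DESeq2 called 44 genes. Per doubling of input the slope was 0.44 ± 0.29 log2 units for Bbc3, 0.36 ± 0.20 for Bcl2l11, 0.22 ± 0.29 for Hrk and 0.22 ± 0.12 for Casp9. It was 0.01 ± 0.04 for Bcl2l1, -0.07 ± 0.06 for Bax, -0.12 ± 0.06 for Mcl1, -0.12 ± 0.16 for Bak1 and -0.18 ± 0.14 for Bcl2 (edgeR adjusted p 0.634 to 0.976 over the 9 genes). Without the low-volume 3 ng library the slope was 0.02 ± 0.07 for Casp9, 0.14 ± 0.14 for Bcl2l11 and -0.15 ± 0.12 for Hrk. In the 10 and 30 ng libraries alone it was 0.07 ± 0.29 for Bbc3, 0.05 ± 0.16 for Bcl2l11, 0.08 ± 0.14 for Hrk and 0.06 ± 0.10 for Casp9. The difference in slope between volumes, fitted as an interaction, was -1.14 ± 0.39 for Hrk and -0.45 ± 0.18 for Casp9, with unadjusted edgeR p-values of 0.0225 and 0.0419 and adjusted p-values of 0.583 for both. That model called 0 genes, with 1348 at an unadjusted p under 0.05. For the other pathway genes, 40 of 46 passed the filter on low counts, and 0 were called by edgeR for volume or for input. In the volume fit 20 of the 40 were above 0 with a median log2 difference of -0.01, where 51.9% of all genes were above 0 with a median of 0.02. In the input fit 16 of the 40 were above 0 with a median slope of -0.01, where 56.4% of all genes were above 0 with a median of 0.02. Ngfr had the lowest adjusted p of these 40 for volume, with 47.5, 52.6 and 75.5 RPKM in high volume and 30.5, 27.5 and 24.8 RPKM in low volume. Its groups did not overlap, and its log2 difference was 1.21 ± 0.18 (edgeR adjusted p = 0.327).

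The genes most like Bcl2l1, Bax and Hrk in their pattern over the 6 libraries were ranked by Pearson's r of log2 TMM-scaled CPM among 10333 genes. Bcl2l1 was closest to Tmem60 (r = 0.999) and Igsf3 (r = 0.997), Bax to Mmaa (0.998) and Efnb3 (0.992), and Hrk to Kazn (1.00) and Ranbp17 (0.999). Kazn had 8.91, 5.47 and 5.60 CPM in high volume and 0.602, 4.99 and 5.40 in low volume, and Ranbp17 had 0 in the low-volume 3 ng library. The likeness to Hrk is thus a shared low value in that library and a shared high value in the high-volume 3 ng library. In the latter Hrk had 13.2 CPM and Ranbp17 18.9 CPM, the highest value of each. With 6 points taken from 1 pool these correlations are descriptions.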

How the data were processed

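The submitters' processing notes name the genome build GRCm38.p1 and the tools Bowtie2 2.1.0, TopHat2 2.0.8 and CASAVA 1.8. How reads were counted, on which annotation release and with what rule for reads of several matches is not given in the sources used here. Each deposited file gives a whole-number tag count for each transcript, exon and intron, and the authors' RPKM, the count scaled to feature length and library size. The totals behind the RPKM were 15482187 to 33940539 tags. For all 93615 transcripts the count was that of their exons added up, and the 22 exon intervals present on both strands had equal counts on each, so counting did not use strand. Tags carry no molecular identifiers, and intervals and floors (3 counts) cover counting error only.

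Transcripts were matched to GENCODE M21 (89664 matched, 3951 not), and a gene was represented by its transcript with the most tags. The test on counts was that of edgeR 4.0.16 under R 4.3.3 (quasi-likelihood, TMM, filterByExpr, reaction volume and centred log2 input, 3 residual degrees of freedom, Benjamini-Hochberg over 16120 genes, threshold 0.05). DESeq2 1.42.0 was an alternative. SEs were derived from the F statistic. RPKM levels of members were compared by exact sign-flip tests on log2(RPKM + 1). All 9 members were named, then each BCL2 family gene, the 2 highest and the lowest gene of each other list, and the 2 genes most like the top member of 3 classes at 5 CPM or more. Some genes that this rule names are not reported here. The members, lists and tests were chosen with earlier results of these data known. Replicate 1 is the 10 ng library, 2 the 3 ng and 3 the 30 ng library in both groups. Deviations of same-input libraries from their volume means correlated at 0.132 (3 ng), 0.111 (10 ng) and 0.127 (30 ng), and those of other-input libraries at -0.132 to 0.103. Deviations from a mean of 3 libraries sum to 0, so these values depend on each other and do not establish a pairing. Input was taken to pair the libraries, and a fit with input as a block was an alternative. Other alternatives were size factors, no filter, the transcript with the highest RPKM, 1 term, the 10 and 30 ng libraries, another pseudocount, a minimum RPKM, and each library left out.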

Additional observations from a re-analysis of the deposited data

Results flagged for a closer look

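Over the 6 libraries of the pool, 2 member values stood apart from the rest by Dixon's criterion, and chance flags about 1 in 20 groups. The share of all genes so flagged was not counted, and both flags fell in the low-volume 3 ng library. Bax had 245.392 RPKM in the low-volume 3 ng library, where the other 5 libraries had 143 to 181 RPKM. Casp9 had 2.168 RPKM in the same library, where the others had 5.02 to 6.12 RPKM. Without that library the mean was 164 RPKM for Bax and 5.43 RPKM for Casp9. Whether depth or the 3 ng preparation had a part in either value was not tested. The coefficient of variation of Casp9, 28.4%, lay near the median of 26.0% among 4251 coding genes within 2-fold of its level. Of these genes 43.35% were more variable than Casp9.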

How the results depend on the processing

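No member passed the threshold under any alternative run, and the lowest adjusted p of a member was 0.211. The number of genes called for volume was 1 in the fit reported, 182 with DESeq2, 11 without the filter on low counts, 278 in the 10 and 30 ng libraries and 0 with input as a replicate block. With a library left out it was 0 to 2 (0 without the low-volume 3 ng library and 2 without the high-volume 30 ng library). The block changed no member's call. For the input slope the count was 0, against 44 with DESeq2, 2 without the filter and 1 in the 10 and 30 ng libraries. DESeq2 gave no adjusted p for Bcl2, Bak1, Bcl2l11, Bbc3 and Hrk in the volume test. Of 117 member estimates under alternatives other than a left-out library, 7 took the other sign. In the 10 and 30 ng libraries the volume difference was -0.30 for Bcl2 and -0.027 for Casp9, and the input slope was -0.015 for Bcl2l1, 0.13 for Bax and 0.14 for Bak1. The Bcl2l1 slope was -0.0031 with size factors and -0.0033 with DESeq2. With a library left out, 9 of 108 estimates took the other sign. The volume difference then ran from -0.28 to 0.31 for Bcl2, -0.15 to 0.037 for Mcl1, -0.29 to 0.012 for Bax, -0.034 to 0.72 for Casp9 and 0.15 to 1.88 for Hrk. The input slope ran from -0.036 to 0.037 for Bcl2l1, -0.13 to 0.0047 for Bax and -0.15 to 0.71 for Hrk. The cause of these changes was not tested. The number of pairs in 1 order was 28 with a pseudocount of 0.1 and with the transcript of highest RPKM, 18 of 21 among members at 1 RPKM or more, 30 in the 10 and 30 ng libraries and 28 to 30 with a library left out. With fewer than 6 libraries the sign-flip test could not pass the threshold. The EL-only share of Bcl2l11 exon 2 tags was 0 to 5.56% with a library left out, 0 without the high-volume 10 ng library, and 5.0% in the 10 and 30 ng libraries. The median level of GC-rich exons was 14.5% with a limit of 65% GC in place of 70%, and 7.86 to 9.09% with a library left out. These alternatives for EL and GC were chosen after seeing the data. Depth limits the lowest genes most, with 14 to 263 tags per library for Hrk and 8 to 48 for Bbc3.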
